A study of Homo sapiens with 9 samples.

Results

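Glycolysis and hypoxia-responsive genes were examined in MOLM13 cells, an established line of human acute myeloid leukemia, after knockdown of DDX41, a DEAD-box RNA helicase. The set held 36 genes of the 30017 in the count table, and its members were chosen by function, except that ALDOC and PFKFB4 were chosen by their lower values with both hairpins. Values of those genes are therefore given as a description with no test. The other 34 were selected on their role in glucose breakdown or in the response to low oxygen, and were grouped by step of the pathway. All cells carried a lentiviral short hairpin RNA (shRNA) vector with a GFP marker, were grown in 20% serum and were sorted as GFP-positive on day 4 after transduction. The groups sh-Control, shDDX41 #1 and shDDX41 #2 held 3 libraries each (A, B and D). The labels do not state whether the libraries of a group came from separate transductions, so p-values measure only the spread between these libraries, which may be technical. Each group had a single hairpin, so effects of a hairpin sequence other than on DDX41 cannot be told apart from those of the knockdown within a group.

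Glycolysis splits glucose into pyruvate in the cytosol. Lactate dehydrogenase turns pyruvate into lactate, and the pyruvate dehydrogenase complex, inside mitochondria, turns it into acetyl-CoA instead. Cells that lack oxygen raise the transcription of most glycolytic enzymes through the hypoxia-inducible factors (HIF), whose alpha subunits are hydroxylated and degraded while oxygen is present. Leukemia cells are known for rapid glycolysis also when oxygen is at hand, and the MYC transcription factor drives many of the same genes.

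The hypoxia-inducible factors recognise the letters ACGTG or GCGTG, and the stretches before the starts of 3 genes described below are shown for the matches they hold. Sequences are from RefSeq on GRCh38.p14, in the 5′ to 3′ direction of the gene, with each match on either strand in capitals. The palindrome CACGTG reads as ACGTG on both strands and counts as 2 matches. Where the bases fell within an annotated exon, only 30 bases around the matches are shown. A stretch before a second annotated start of LDHA, with a single GCGTG match, and a PFKFB4 stretch without a match are not shown.
ALDOC, chr17:28577116-28577145, minus strand: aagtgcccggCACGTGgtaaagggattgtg
ALDOC, chr17:28576986-28577015, minus strand: ccgcctctgaggGCGTGgtcttgccccgga
ALDOC, chr17:28576915-28576944, minus strand: aggcCACGCccccggaggagtCACGTagct
PFKFB4, chr3:48556924-48556982, minus strand: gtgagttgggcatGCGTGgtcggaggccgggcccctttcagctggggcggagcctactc
LDHA, chr11:18394313-18394387, plus strand: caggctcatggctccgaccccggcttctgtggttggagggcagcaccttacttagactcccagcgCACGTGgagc
LDHA, chr11:18394471-18394500, plus strand: actcaCACGTGggttcccgCACGTccgccg
The promoter table held windows of 300 bases (250 before and 50 after a start) and matched 32 of the 36 members, without NDRG1, SLC2A3, BNIP3L and VEGFA. The letters ACGTG stood in 39.3% of the 61 member windows and in 21.4% of all 35116 windows. For GCGTG the shares were 42.6% and 36.5%, and for either motif 67.2% and 48.4%. At least 1 of the motifs stood in a window of 29 of the 32 members and of 14318 of all 27305 genes, and the members had more windows per gene. The highest numbers in a window were 6, for HK2, BNIP3 and LDHA, where the last LDHA match reaches into the bases after the start that are not shown, followed by 5 for ALDOC. These matches describe the letters and are no evidence of binding in these cells.

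Libraries held from 16385238 to 20510032 counts, and 12712 genes passed the filter on low counts. Levels are CPM (counts scaled to the library totals after TMM correction), and differences are log2 fold changes. DDX41 itself stood at 117, 115 and 113 CPM in the sh-Control libraries, at 12.2, 12.9 and 9.95 with shDDX41 #1 and at 38.9, 39.9 and 42.5 with shDDX41 #2, so the knockdown was deeper with shDDX41 #1. Myeloid markers summed to 2490 to 2681 CPM in sh-Control, 2532 to 2637 with shDDX41 #1 and 3417 to 3476 with shDDX41 #2, with 10 of 11 genes tested and CD14 too low to test. These sums hide opposite moves. With shDDX41 #1, CSF1R and FCGR1A fell (-0.86, adjusted p = 3.79e-05, and -0.71, adjusted p = 4.37e-06) while CD33 and FLT3 rose (0.25, adjusted p = 0.00462, and 0.20, adjusted p = 0.0204). The higher sum with shDDX41 #2 was mostly LYZ, lysozyme, which went from a mean of 931 to 1818 CPM. With shDDX41 #2, 4 of the 10 tested myeloid markers were called higher and 0 lower, a called share of 40% against 25% of all genes. Means of MPO were 112 CPM in sh-Control and 169 with shDDX41 #2, and those of ITGAM 12.5 and 17.9. Among 13 markers of T, B, erythroid and epithelial cells, 10 were under 1 CPM in every library and 5 were at 0 throughout. Their sum was 16.6 to 21 CPM in sh-Control, 18.0 to 19.3 with shDDX41 #1 and 20.8 to 22.2 with shDDX41 #2. Most of this sum was the keratin KRT18, at means of 15.5, 14.6 and 15.3 CPM (-0.08, adjusted p = 0.561, with shDDX41 #1). The epithelial keratin KRT8 rose from 1.69 CPM to 2.61 with shDDX41 #1 (adjusted p = 0.0261) and 3.38 with shDDX41 #2 (adjusted p = 0.00271). The T-cell gene CD3D, at 1.16 CPM in sh-Control, was called lower with shDDX41 #1 (-1.25, adjusted p = 0.00877). It stood at 1.92 CPM with shDDX41 #2, where KRT8 was the only call among the 4 markers tested. The part of these marker differences in the results below was not tested. Libraries within shDDX41 #1 were less alike than within shDDX41 #2: a chi-square per degree of freedom of counts over genes was 17.6 and 19.2 for the pairs with library D and 2.91 for A and B, against 2.45 to 3.25 in shDDX41 #2 and 8.0 to 10.1 in sh-Control.

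Most of the tested members fell with each hairpin. Of the 31 members tested (the 33 that passed the filter on low counts, without ALDOC and PFKFB4), 23 fell and 1, EGLN1, rose with shDDX41 #1 at an adjusted p under 0.05 (edgeR). With shDDX41 #2, 17 fell and 0 rose (2, PDK3 and EGLN1, rose at an unadjusted p under 0.05, 0 by DESeq2, and 1, PDK3, by limma voom). Over all genes, 24.1% were called lower and 23.7% higher with shDDX41 #1 (47.8% in all), and 13.4% lower and 11.6% higher with shDDX41 #2 (25% in all). These contrasts with sh-Control are the ones by which ALDOC and PFKFB4 were chosen, and nothing is read from the counts against that background. Both contrasts use the same sh-Control libraries. Of all genes called with shDDX41 #1, 49.5% were higher, and 61.1% under upper quartile factors. The median log2 fold change of the 31 genes was -0.45 with shDDX41 #1 (range -1.69 to 0.42) and -0.28 with shDDX41 #2 (range -1.39 to 0.29), where the medians of all genes tested were 0.01 and -0.01. The 3 members that did not pass the filter were ADM, EGLN3 and P4HA2. ADM, a vasodilator peptide, had counts of 13, 1 and 0 in sh-Control and 1 to 4 in the other libraries, EGLN3 had at most 2 and P4HA2 at most 6 in any library.

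**Figure D1:**
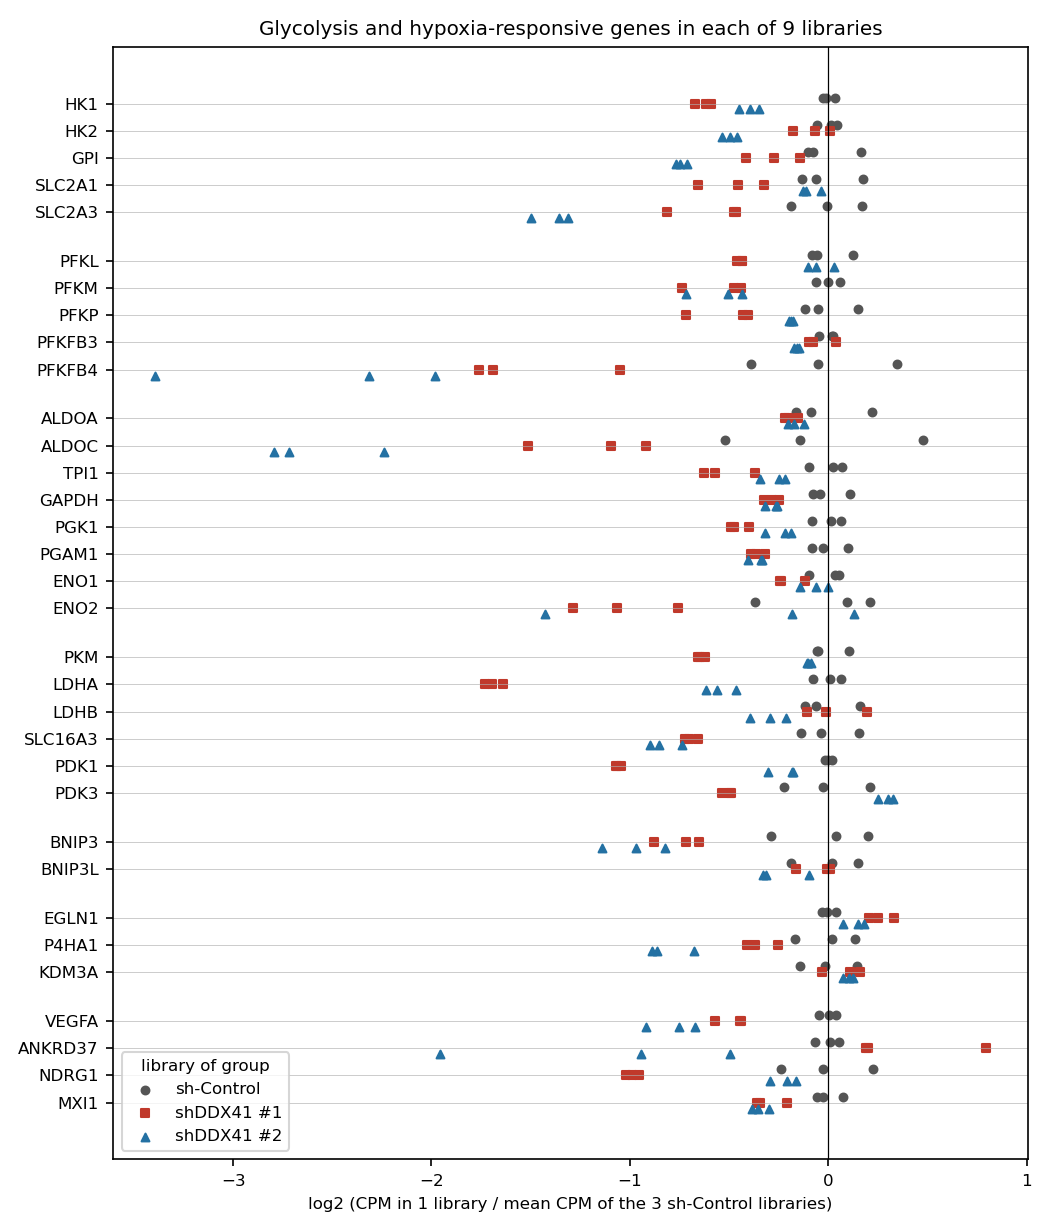
Each row is a member that passed the filter, and each point 1 library, placed at the log2 of its CPM over the mean CPM of the 3 sh-Control libraries, with blocks of rows from glucose entry at the top to other HIF targets at the bottom. The shDDX41 #1 points of LDHA, PDK1 and NDRG1 lie far left of the shDDX41 #2 points, and for SLC2A3, GPI and P4HA1 the order is the other way round.

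The direct contrast of the hairpins was not used to choose the members. There, 18 of the 31 were called, 11 lower and 7 higher with shDDX41 #1, a share of 58.1% against 48.8% of all genes (24.2% lower and 24.6% higher). The median difference was -0.01, with a range from -1.14 for LDHA to 1.41 for ANKRD37. By the 3 contrasts, 5 genes fell with both hairpins and further with shDDX41 #1 (HK1, TPI1, PGK1, LDHA and PDK1). The difference between hairpins lost its call for HK1 without shDDX41 #1 D, shDDX41 #2 B or shDDX41 #2 D (adjusted p from 0.0510 to 0.0807), for TPI1 without shDDX41 #1 A or shDDX41 #2 B (0.0611 and 0.0613) and for PGK1 without shDDX41 #2 A or B (0.0570 and 0.0658). Another 4 fell with both and further with shDDX41 #2 (GPI, SLC2A3, VEGFA and P4HA1). A further 6 fell with both without a called difference between the hairpins (PFKM, GAPDH, PGAM1, SLC16A3, BNIP3 and MXI1). The 6 genes PFKL, PFKP, PKM, SLC2A1, PDK3 and NDRG1 fell with shDDX41 #1 and were lower there than with shDDX41 #2, and HK2 and LDHB showed the same with the hairpins exchanged. Shares of all genes with these joint patterns were not computed, and a fall with both hairpins rests on the same sh-Control libraries. The patterns therefore sort the members, and nothing is read from their counts.

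**Figure D2:**
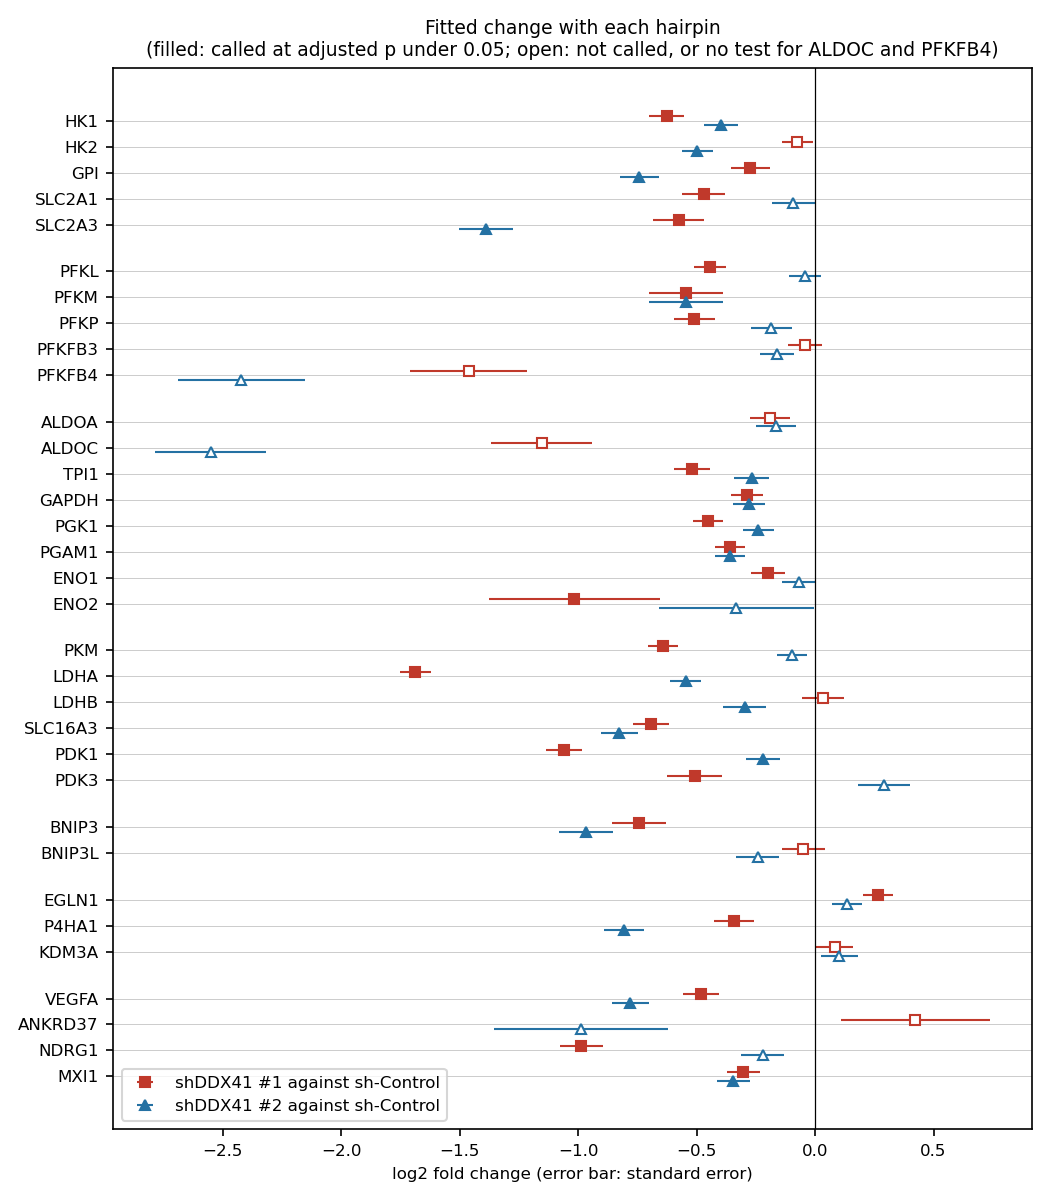
Log2 fold changes against sh-Control with their standard errors, shDDX41 #1 as squares and shDDX41 #2 as triangles. Filled symbols are called and open symbols are not called, or belong to ALDOC and PFKFB4, which have no test; LDHA with shDDX41 #1 lies at -1.69, and EGLN1 with shDDX41 #1 is the filled symbol to the right of 0.

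Glucose enters cells through the transporters SLC2A1 and SLC2A3 and is trapped by hexokinases. SLC2A3, the high-affinity transporter, had 47.4, 37.0 and 41.9 CPM in sh-Control, 30.3, 30.5 and 24.0 with shDDX41 #1, and 17.0, 14.9 and 16.4 with shDDX41 #2. The 3 groups did not overlap, with every shDDX41 #2 library lowest. The fall was 0.58 ± 0.11 (SE) log2 units with shDDX41 #1 (adjusted p = 4.85e-04) and a log2 fold change of -1.39 ± 0.11 was fitted with shDDX41 #2 (adjusted p = 8.81e-07), and the hairpins differed by 0.81 (adjusted p = 3.74e-05). SLC2A3 has a near-identical copy, SLC2A14, and how reads that match both were counted is not stated. SLC2A1, the basal transporter, fell with shDDX41 #1, from a mean of 79.1 to 57.1 CPM (log2 fold change -0.47, adjusted p = 6.70e-04), and stood at 74.2 CPM with shDDX41 #2 (-0.09, adjusted p = 0.494).

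HK1, the housekeeping hexokinase, was at 35.6, 34.4 and 34.1 CPM in sh-Control, 23.0, 22.6 and 21.8 with shDDX41 #1, and 25.4, 27.2 and 26.4 with shDDX41 #2. All 6 knockdown libraries lay below all 3 controls, by -0.63 ± 0.07 (adjusted p = 7.89e-06) and -0.40 ± 0.07 (adjusted p = 0.00118). HK2, the inducible hexokinase that HIF and MYC regulate, had 125, 128 and 119 CPM in sh-Control, 118, 125 and 110 with shDDX41 #1, and 87.7, 90.1 and 85.3 with shDDX41 #2. The shDDX41 #1 libraries overlapped the controls (-0.07, adjusted p = 0.371) and the shDDX41 #2 libraries were below both (-0.50, adjusted p = 8.69e-05), with a difference between hairpins of 0.42 (adjusted p = 1.03e-04). GPI, which turns glucose-6-phosphate into fructose-6-phosphate, was at 607, 514 and 505 CPM in sh-Control, 491, 449 and 407 with shDDX41 #1, and 323, 331 and 319 with shDDX41 #2. Its groups did not overlap, and GPI fell by 0.74 log2 units with shDDX41 #2 (adjusted p = 1.63e-05), against -0.27 with shDDX41 #1 (adjusted p = 0.0121), a call that was lost without sh-Control library A (-0.18, adjusted p = 0.0664).

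Phosphofructokinase commits sugar to glycolysis, and the bifunctional PFKFB enzymes set the level of its activator, fructose-2,6-bisphosphate. PFKFB4 had 21.9, 13.1 and 16.6 CPM in sh-Control, 8.32, 5.09 and 5.34 with shDDX41 #1, and 3.46, 4.36 and 1.64 with shDDX41 #2. Its 3 groups did not overlap, the lowest control being above the highest knockdown library. PFKFB4 was chosen by this difference, so the separation from sh-Control is no support for it. The fitted log2 differences from sh-Control were -1.46 and -2.42, given with no test. The related enzyme PFKFB3 stood at a mean of 35.7 CPM in sh-Control, 34.6 with shDDX41 #1 and 31.9 with shDDX41 #2, and passed the test in no contrast (-0.04, adjusted p = 0.647, and -0.16, adjusted p = 0.112). Among the subunits of phosphofructokinase, the liver form PFKL had 236, 208 and 204 CPM in sh-Control, 157, 160 and 159 with shDDX41 #1, and 207, 221 and 201 with shDDX41 #2. Its shDDX41 #1 libraries lay below all others and its shDDX41 #2 libraries overlapped the controls, with log2 fold changes of -0.44 (adjusted p = 8.80e-05) and -0.04 (adjusted p = 0.694), and the hairpins differed (-0.40, adjusted p = 1.96e-04). The platelet form PFKP followed the same order (-0.51, adjusted p = 2.33e-04, and -0.19, adjusted p = 0.130). The muscle form PFKM, at 3.53 CPM with either hairpin against 5.16 in sh-Control, fell with both (-0.54, adjusted p = 0.0101, and -0.55, adjusted p = 0.0181). PFKM shares exon bases with SENP1 on the opposite strand, and the strand setting of the counting is not stated.

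Aldolase cleaves fructose-1,6-bisphosphate into the triose phosphates. ALDOC, the form best known from brain, lies on chr17:28573115-28577264 (GENCODE v29, GRCh38, minus strand). It had 45.1, 22.6 and 29.3 CPM in sh-Control, 17.1, 15.1 and 11.3 with shDDX41 #1, and 4.92, 6.84 and 4.67 with shDDX41 #2. The controls spread 2.0-fold, from library B to library A. No control overlapped a knockdown library, but ALDOC was chosen by this difference, so the separation is no support for it. No shDDX41 #1 library overlapped a shDDX41 #2 library. Means were 32.4 ± 11.6 (SD, n = 3), 14.5 ± 2.93 and 5.48 ± 1.19 CPM, with log2 differences from sh-Control of -1.15 and -2.55, or -0.84 and -2.24 without control library A. ALDOA, the ubiquitous aldolase, was far more abundant: per kilobase of exon, 541 CPM against 15.9 for ALDOC in sh-Control. Its means were 1301 ± 188, 1139 ± 27.7 and 1160 ± 32.6 CPM, and it passed the test with neither hairpin (-0.19, adjusted p = 0.0737, and -0.17, adjusted p = 0.169).

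Of the abundant enzymes of the triose steps, GAPDH, TPI1, PGK1 and PGAM1 fell with both hairpins. GAPDH, which reduces NAD+ at the first energy-yielding step, had 4529, 3986 and 4082 CPM in sh-Control, 3531, 3353 and 3448 with shDDX41 #1, and 3517, 3494 and 3371 with shDDX41 #2. The knockdown libraries all lay below the controls and overlapped each other (-0.29, adjusted p = 0.00290, and -0.28, adjusted p = 0.00795), and GAPDH has 62 annotated pseudogenes whose share of reads is unknown. TPI1, which interconverts the triose phosphates, was at 673, 620 and 695 CPM in sh-Control, 429, 446 and 514 with shDDX41 #1, and 558, 571 and 523 with shDDX41 #2. It fell by 0.52 with shDDX41 #1 (adjusted p = 5.78e-05) and by 0.27 with shDDX41 #2 (adjusted p = 0.0174), the second call being lost without shDDX41 #2 A, shDDX41 #2 D or sh-Control D (adjusted p = 0.0519, 0.0882 and 0.0657). PGK1, which makes the first ATP, stood at 781, 729 and 806 CPM in sh-Control, 550, 556 and 586 with shDDX41 #1, and 665, 677 and 619 with shDDX41 #2. Its groups did not overlap, and it fell by 0.45 (adjusted p = 4.67e-05) and by 0.24 (adjusted p = 0.0136), the latter not called without sh-Control D (adjusted p = 0.0584) or shDDX41 #2 D (adjusted p = 0.0800). PGAM1, the mutase of the next step, fell by 0.36 with each hairpin (adjusted p = 2.98e-04 and 8.58e-04), from a mean of 326 to 254 CPM.

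Enolase makes phosphoenolpyruvate. ENO1, the main enolase, had 3440, 3103 and 3400 CPM in sh-Control, 2801, 2809 and 3051 with shDDX41 #1, and 3171, 3308 and 3004 with shDDX41 #2. Its call with shDDX41 #1 (-0.20, adjusted p = 0.0293) was lost without sh-Control A or D or shDDX41 #1 A or B (adjusted p from 0.0839 to 0.104), and it was not called with shDDX41 #2 (-0.07, adjusted p = 0.513). ENO2, the neuronal enolase, had only 34, 22 and 33 counts in sh-Control, 16, 13 and 11 with shDDX41 #1, and 33, 29 and 10 with shDDX41 #2. The shDDX41 #1 libraries were below the controls (-1.02 ± 0.36, adjusted p = 0.0302), and shDDX41 #2 held both a library at the control level and the lowest of all. At these depths the ENO2 call was lost when sh-Control A, sh-Control D, shDDX41 #1 B or shDDX41 #1 D was left out (adjusted p from 0.0720 to 0.0964).

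Across the 17 glycolytic enzymes and lactate dehydrogenases, the share of all counts was 1.64%, 1.49% and 1.55% in sh-Control, 1.21%, 1.21% and 1.19% with shDDX41 #1, and 1.31%, 1.33% and 1.27% with shDDX41 #2. No knockdown library reached the lowest control. The sum includes ALDOC, which was chosen by its lower values, at a mean of 32.4 CPM in sh-Control against 4199 for GAPDH. In bulk samples, fewer cells that express a gene and less RNA per cell cannot be told apart.

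At the fate of pyruvate lay the largest fall of the tested members with shDDX41 #1. LDHA, the lactate dehydrogenase subunit that favours lactate formation, lies on chr11:18394388-18408425 (GENCODE v29, GRCh38, plus strand). It had 1520, 1383 and 1465 CPM in sh-Control, 450, 468 and 439 with shDDX41 #1, and 988, 1055 and 950 with shDDX41 #2. The 3 groups did not overlap, at 1456 ± 69.2 (SD, n = 3), 452 ± 14.4 and 998 ± 52.8 CPM. LDHA was 3.22-fold lower with shDDX41 #1 (log2 fold change -1.69 ± 0.07, adjusted p = 2.96e-10) and 1.46-fold lower with shDDX41 #2 (-0.55 ± 0.07, adjusted p = 3.52e-05), and the hairpins differed by -1.14 ± 0.07 (adjusted p = 8.25e-09). LDHB, the subunit that favours the reverse reaction, had 1162, 1119 and 1358 CPM in sh-Control, 1126, 1205 and 1392 with shDDX41 #1, and 991, 1046 and 924 with shDDX41 #2. LDHB overlapped the controls with shDDX41 #1 (0.03, adjusted p = 0.786) and fell with shDDX41 #2 (-0.30, adjusted p = 0.0250), with a difference between hairpins of 0.33 (adjusted p = 0.00699).

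PKM, the pyruvate kinase whose isoforms are not separated in gene counts, stood at 1255, 1126 and 1124 CPM in sh-Control, 759, 746 and 742 with shDDX41 #1, and 1088, 1100 and 1087 with shDDX41 #2. It fell with shDDX41 #1 (-0.64 ± 0.06, adjusted p = 1.16e-06), lay just below the controls with shDDX41 #2 (-0.10, adjusted p = 0.275) and differed between the hairpins (-0.54, adjusted p = 5.92e-06). PDK1, a kinase that shuts off pyruvate dehydrogenase, had 37.8, 38.3 and 37.4 CPM in sh-Control, 18.0, 18.3 and 18.1 with shDDX41 #1, and 30.7, 33.4 and 33.4 with shDDX41 #2. These libraries were close to each other within each group, and the falls were 2.08-fold with shDDX41 #1 (log2 fold change -1.06 ± 0.07, adjusted p = 4.46e-08) and 1.16-fold with shDDX41 #2 (-0.22 ± 0.07, adjusted p = 0.0343). The second call was lost when any of sh-Control A, B or D, shDDX41 #2 A, B or D, or shDDX41 #1 A was left out (adjusted p from 0.0539 to 0.152), and the difference between hairpins was -0.84 (adjusted p = 4.51e-07). PDK3, a related kinase, went apart: 15.3, 13.4 and 18.1 CPM in sh-Control, 11.1, 11.1 and 10.7 with shDDX41 #1, and 18.5, 19.5 and 19.2 with shDDX41 #2. Its shDDX41 #1 libraries were below all controls (-0.51 ± 0.12, adjusted p = 0.00207) and its shDDX41 #2 libraries above them (0.29 ± 0.11, adjusted p = 0.0637), and the hairpins differed by -0.80 ± 0.11 (adjusted p = 4.03e-05). SLC16A3, which exports lactate, was at 238, 195 and 209 CPM in sh-Control, 130, 136 and 131 with shDDX41 #1, and 119, 129 and 115 with shDDX41 #2. Both hairpins took it well below the controls (-0.69 ± 0.08, adjusted p = 3.61e-06, and -0.83 ± 0.08, adjusted p = 3.04e-06), with no called difference between them (0.13, adjusted p = 0.164).

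**Figure D3:**
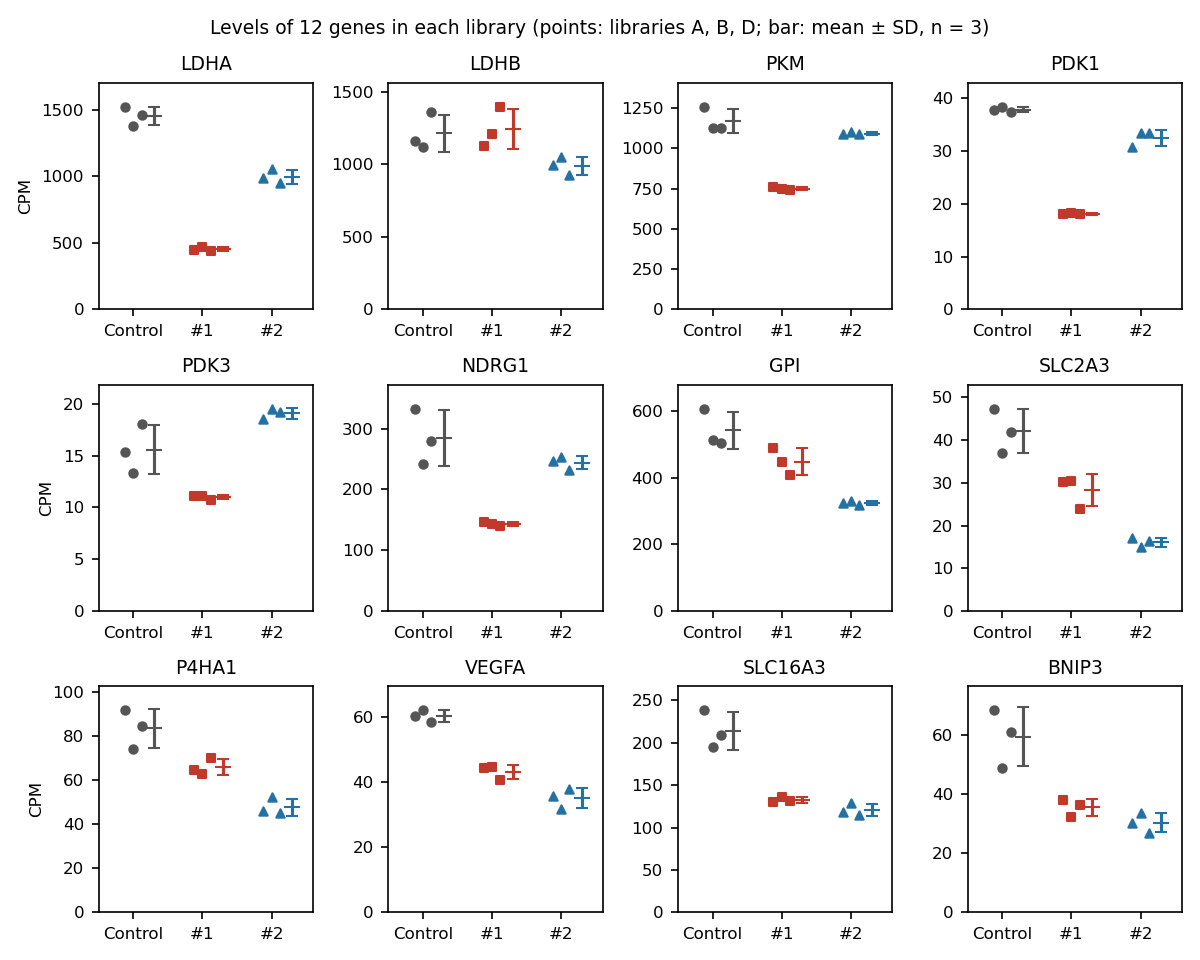
CPM of 12 members in each library, from 0, with points for libraries A, B and D and a bar at the mean ± SD (n = 3). LDHA falls from 1456 to 452 CPM with shDDX41 #1 and 998 with shDDX41 #2, LDHB overlaps the controls with shDDX41 #1, and PDK3 lies below the controls with shDDX41 #1 and above them with shDDX41 #2.

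Ratios of related genes of the same step differed between the groups for some pairs and overlapped for others. Within each library, the ratio of LDHB to LDHA counts was 0.765, 0.809 and 0.927 in sh-Control, 2.50, 2.58 and 3.17 with shDDX41 #1, and 1.00, 0.992 and 0.972 with shDDX41 #2. The ratio was thus highest in every shDDX41 #1 library, by 1.72 log2 units over sh-Control, and the shDDX41 #2 libraries lay just above the controls, by 0.25. For HK2 over HK1 the ratios were 3.51, 3.71 and 3.49, then 5.14, 5.51 and 5.03, then 3.45, 3.31 and 3.23, with shDDX41 #1 at 0.55 log2 units above sh-Control and shDDX41 #2 at -0.10. SLC2A3 over SLC2A1 was 0.531, 0.487 and 0.581 in sh-Control, 0.478, 0.529 and 0.477 with shDDX41 #1, and 0.220, 0.204 and 0.227 with shDDX41 #2. Here shDDX41 #2 was apart by -1.29 and shDDX41 #1 overlapped the controls. PDK3 over PDK1 was 0.56 and 0.52 log2 units above sh-Control, and BNIP3 over BNIP3L 0.69 and 0.72 below it, nearly the same with each hairpin. With shDDX41 #1, PFKP over PFKL and PFKM over PFKL overlapped the controls (-0.07 and -0.10 log2 units), as ENO2 over ENO1 did with shDDX41 #2 (-0.39). With the other hairpin these pairs lay apart from the controls. PFKP over PFKL and PFKM over PFKL were at -0.14 and -0.51 with shDDX41 #2, and ENO2 over ENO1 at -0.79 with shDDX41 #1. A two-sided exact permutation test of 3 against 3 libraries cannot go below p = 0.1, which was adjusted to 0.15 over the 24 tests of 8 pairs, so no pair could pass the threshold. ALDOC over ALDOA was lower by 0.93 and 2.36 log2 units and PFKFB4 over PFKFB3 by 1.42 and 2.36, as a description.

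**Figure D4:**
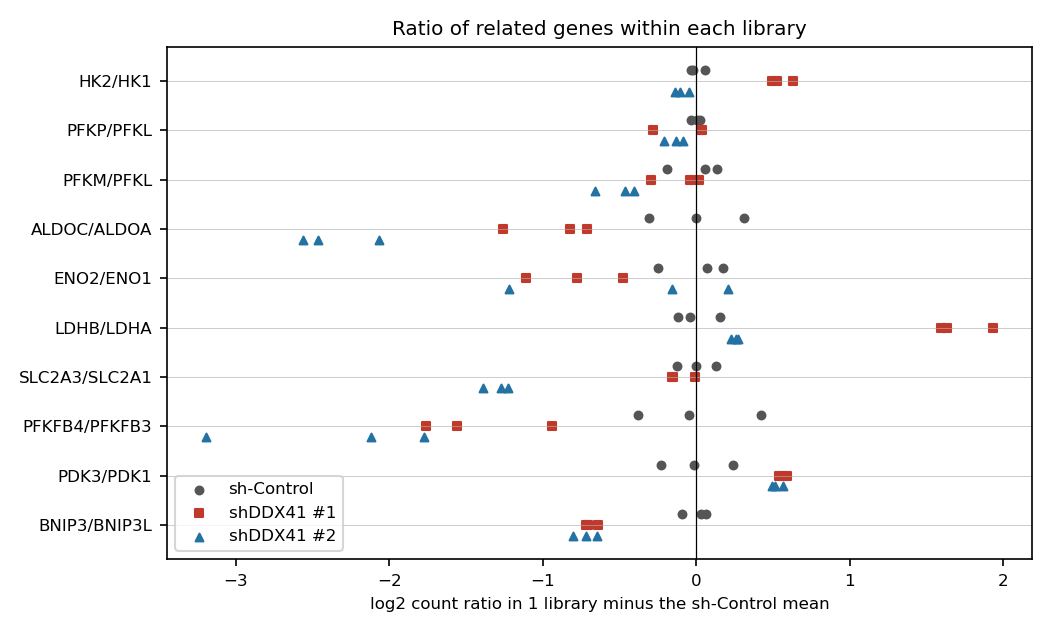
Log2 ratio of the counts of related genes in each library, minus the mean of the 3 sh-Control libraries. The shDDX41 #1 points of LDHB/LDHA lie at the right, the shDDX41 #2 points of SLC2A3/SLC2A1 at the left, and both hairpins fall together for BNIP3/BNIP3L.

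Among the HIF targets outside glycolysis, BNIP3, which targets mitochondria for autophagy, had 68.3, 48.7 and 61.1 CPM in sh-Control, 37.9, 32.3 and 36.2 with shDDX41 #1, and 30.4, 33.6 and 27.0 with shDDX41 #2. Every knockdown library was below every control (-0.74 ± 0.11, adjusted p = 8.25e-05, and -0.97 ± 0.11, adjusted p = 2.96e-05), with 39 annotated pseudogenes leaving the read assignment uncertain. Its relative BNIP3L had means of 86.7, 83.7 and 73.3 CPM and passed the test in neither contrast (-0.05, adjusted p = 0.673, and -0.24, adjusted p = 0.0634). VEGFA, the angiogenic growth factor, was at 60.5, 62.1 and 58.4 CPM in sh-Control, 44.4, 44.5 and 40.6 with shDDX41 #1, and 35.8, 31.9 and 37.8 with shDDX41 #2. Its groups did not overlap, and it fell by 0.48 (adjusted p = 1.07e-04) and 0.78 log2 units (adjusted p = 5.38e-06), with a difference of 0.30 (adjusted p = 0.00538). NDRG1, a stress-inducible protein linked to differentiation, had 333, 241 and 279 CPM in sh-Control, 147, 143 and 140 with shDDX41 #1, and 246, 254 and 232 with shDDX41 #2. Its shDDX41 #1 libraries lay below all others (-0.99 ± 0.09, adjusted p = 7.43e-07), and the shDDX41 #2 libraries overlapped the controls at -0.22 (adjusted p = 0.0894), which was called without sh-Control B (-0.32, adjusted p = 0.0172). MXI1, a MYC antagonist, fell by 0.30 and 0.34 (adjusted p = 0.00197 and 0.00196). ANKRD37, an ankyrin repeat protein, had 18, 19 and 20 counts in sh-Control, 20, 20 and 30 with shDDX41 #1, and 5, 15 and 9 with shDDX41 #2. It passed no test against sh-Control (0.42, adjusted p = 0.285, and -0.99, adjusted p = 0.0617), the second being called without shDDX41 #2 B (adjusted p = 0.0455), and the hairpins differed by 1.41 ± 0.36 (adjusted p = 0.00414).

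The enzymes that use oxygen did not share a direction. P4HA1, which hydroxylates collagen, stood at 91.5, 74.1 and 84.3 CPM in sh-Control, 64.5, 62.8 and 69.8 with shDDX41 #1, and 45.8, 52.1 and 45.0 with shDDX41 #2. Its groups did not overlap, and it fell by 0.34 (adjusted p = 0.00373) and by 0.81 (adjusted p = 1.10e-05), with a difference of 0.46 between the hairpins (adjusted p = 4.42e-04). EGLN1, the prolyl hydroxylase that marks HIF alpha subunits for degradation, was the member that rose with shDDX41 #1, from a mean of 74.2 to 89.1 CPM (0.26, adjusted p = 0.00311). With shDDX41 #2 it stood at 81.5 CPM (0.14, adjusted p = 0.133). KDM3A, a histone demethylase, passed the test in no contrast (0.08, adjusted p = 0.400, and 0.10, adjusted p = 0.365).

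Genes around the pathway were compared as lists. Their called shares are given beside those of all genes, and no list was tested as a set. Among 13 tested HIF factors and their regulators, 3 fell and 2 rose with shDDX41 #1 (median -0.05). With shDDX41 #2, 2 fell and 1 rose (median -0.08). The called shares were 38.5% with shDDX41 #1 and 23.1% with shDDX41 #2, against 47.8% and 25% of all genes. HIF1A, the main oxygen-regulated subunit, had 91.3, 95.2 and 83.8 CPM in sh-Control, 67.9, 67.8 and 54.7 with shDDX41 #1, and 65.6, 68.5 and 65.6 with shDDX41 #2. Its mRNA fell with each hairpin (-0.50, adjusted p = 1.70e-04, and -0.44, adjusted p = 0.00155), and the difference between them was -0.07 ± 0.08 (adjusted p = 0.523). SIAH2, a ubiquitin ligase that degrades prolyl hydroxylases, fell by 0.61 (adjusted p = 5.43e-06) and 0.27 (adjusted p = 0.0102). HIF1AN, the asparaginyl hydroxylase that restrains HIF, rose by 0.38 with shDDX41 #1 (adjusted p = 5.48e-04). EPAS1, a second alpha subunit present at 1.34 CPM in sh-Control and 2.37 with shDDX41 #1, rose there as well (0.82, adjusted p = 0.0151). TCEB1, of the VHL ubiquitin ligase, fell with shDDX41 #1 (-0.24, adjusted p = 0.0245), VHL rose with shDDX41 #2 (0.19, adjusted p = 0.0434), and ARNT, the constitutive partner, differed between the hairpins (-0.36, adjusted p = 0.00844). The protein levels that decide HIF activity were not measured here.

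Of 36 tested HIF targets outside the set, 14 fell and 4 rose with shDDX41 #1 (median -0.12). With shDDX41 #2, 13 fell and 4 rose (median -0.24). The shares called lower were 38.9% and 36.1%, against 24.1% and 13.4% of all genes. Those called higher were 11.1% with each hairpin, against 23.7% and 11.6% of all genes. ADORA2B, an adenosine receptor, fell by a log2 fold change of -1.21 with shDDX41 #1 (adjusted p = 5.23e-07) and -0.34 with shDDX41 #2 (adjusted p = 0.0226), the order of LDHA. GBE1, a glycogen branching enzyme, showed the same order (-0.83, adjusted p = 6.76e-07, and -0.35, adjusted p = 0.00375). DDIT4, a stress inhibitor of mTOR signalling, fell further with shDDX41 #2 (-0.42, adjusted p = 6.75e-04, and -0.84, adjusted p = 5.82e-06), the order of SLC2A3. CXCR4, a chemokine receptor, rose with both (0.60, adjusted p = 4.03e-05, and 0.63, adjusted p = 9.01e-05). MIR210HG, a noncoding gene named here after its values were seen, had 18, 18 and 19 counts in sh-Control, 8, 4 and 4 with shDDX41 #1, and 2, 3 and 1 with shDDX41 #2.

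Other enzymes of glycolysis and pyruvate use, 23 tested, went both ways with shDDX41 #1 (10 fell, 5 rose) and with shDDX41 #2 (3 fell, 3 rose). The called shares were 65.2% and 26.1%, against 47.8% and 25% of all genes. TIGAR, listed under its older symbol C12orf5 and known to lower fructose-2,6-bisphosphate, rose with shDDX41 #1 (0.99, adjusted p = 2.74e-06) and stood at 0.14 with shDDX41 #2 (adjusted p = 0.367). MPC1, a subunit of the mitochondrial pyruvate carrier, fell with shDDX41 #1 (-0.57, adjusted p = 5.71e-05). DLAT, of the pyruvate dehydrogenase complex, fell with both (-0.38, adjusted p = 1.16e-04, and -0.40, adjusted p = 2.16e-04). PDP2, a phosphatase that opposes the PDK kinases, rose with shDDX41 #1 (0.39, adjusted p = 2.89e-04) and fell with shDDX41 #2 (-0.27, adjusted p = 0.0116).

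Of 10 other transporters, 3 fell and 2 rose with shDDX41 #1, and 2 fell and 1 rose with shDDX41 #2. The called shares were 50% and 30%, against 47.8% and 25% of all genes. SLC2A14, the near copy of SLC2A3, rose with shDDX41 #1 (1.11, adjusted p = 1.88e-05), opposite to SLC2A3, and the fructose transporter SLC2A5 fell (-0.65, adjusted p = 2.07e-05). SLC16A1, a lactate transporter, fell with both (-0.19, adjusted p = 0.0295, and -0.44, adjusted p = 2.18e-04), and SLC2A11 rose with both (1.29, adjusted p = 4.00e-05, and 1.05, adjusted p = 8.12e-04). In the pentose phosphate pathway, which branches from glucose-6-phosphate, 2 of 8 genes, RPE and PGD, fell with shDDX41 #1 (-0.35, adjusted p = 0.00107, and -0.22, adjusted p = 0.0159). With shDDX41 #2, PGLS rose (0.35, adjusted p = 0.0191) and TALDO1 stood at 0.19 (adjusted p = 0.0619). Called shares of the pentose phosphate pathway were 25% with shDDX41 #1 and 12.5% with shDDX41 #2, against 47.8% and 25% of all genes.

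MYC and glucose-sensing regulators, 16 tested, included 5 that rose and 3 that fell with shDDX41 #1. With shDDX41 #2, 1 rose and 2 fell. The called shares were 50% and 18.8%, against 47.8% and 25% of all genes. MYC had 403, 440 and 421 CPM in sh-Control, 629, 612 and 542 with shDDX41 #1, and 258, 263 and 306 with shDDX41 #2. Its groups did not overlap and went opposite ways from sh-Control (0.50, adjusted p = 1.11e-04, and -0.61, adjusted p = 6.19e-05), with a difference of 1.11 between the hairpins (adjusted p = 4.76e-08). TXNIP, a glucose-induced inhibitor of glucose uptake, rose with both (0.66, adjusted p = 2.58e-06, and 0.40, adjusted p = 8.70e-04), and MXD4, a MYC antagonist, rose with shDDX41 #1 (0.69, adjusted p = 7.38e-05). The part of MYC, HIF1A or TXNIP in the members' values was not tested.

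**Figure D5:**
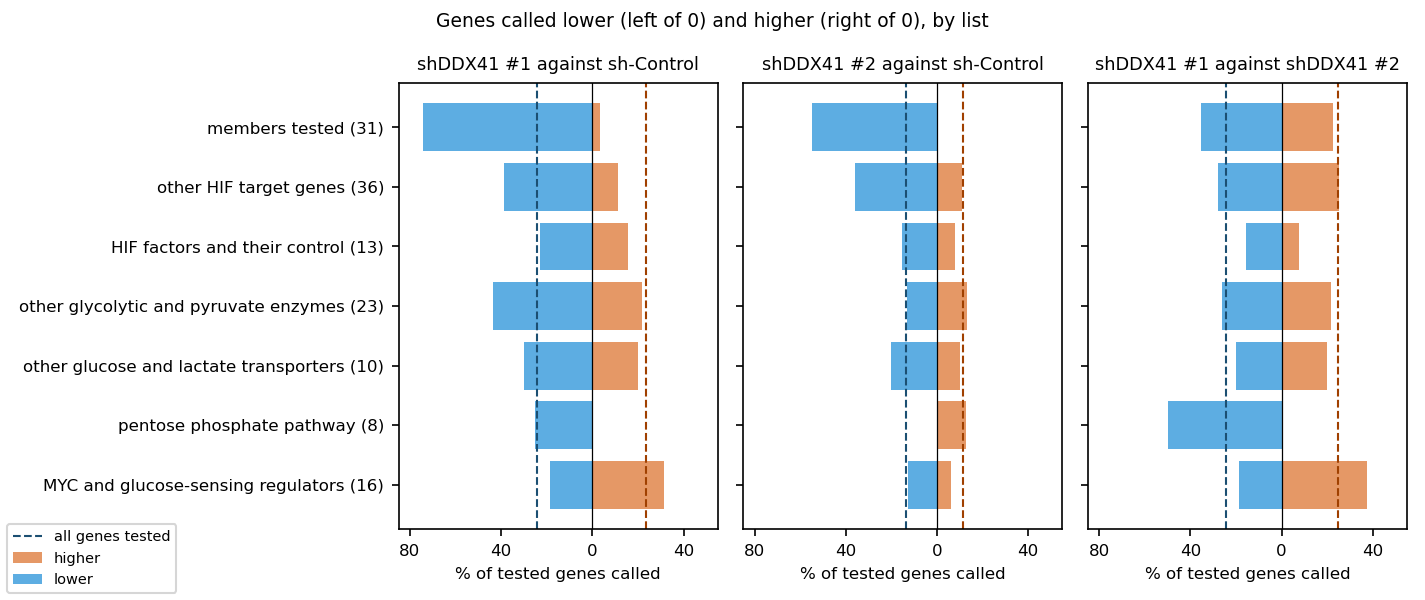
Percent of the tested genes of each list called lower (left of 0) and higher (right of 0) in each contrast, with dashed lines at the percentages of all 12712 genes and the number of genes tested in parentheses. The first row holds the 31 tested members, 74.2% of them lower with shDDX41 #1 and 54.8% with shDDX41 #2.

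Within sh-Control, library A was the highest of the 3 for 21 of the 33 genes and library B the lowest for 17. The ratio of A to B was 2.0 for ALDOC, 1.67 for PFKFB4, 1.5 for ENO2, 1.40 for BNIP3 and 1.38 for NDRG1. Within shDDX41 #1, library A was highest for 16 genes and D lowest for 16. Within shDDX41 #2, library B was highest for 25 genes and D lowest for 22. The same order over all genes was not computed, so these counts do not show whether it is particular to the members. The median ratio of the highest to the lowest library was 1.16 in sh-Control, 1.11 with shDDX41 #1 and 1.09 with shDDX41 #2.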

How the data were processed

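The authors sequenced poly(A)-selected RNA of sorted cells as 9 libraries. The labels name a kit that keeps the strand, whereas the methods of the study name a related kit that does not. The submitters' processing notes name FastQC 0.11.7, HISAT2 2.0.5, featureCounts 1.5.2 and the builds hg38 and mm10. The annotation, the strand setting and the handling of reads matching several genes are not given in the sources used here. Genes with near copies, or sharing exon bases with a gene on either strand, are therefore uncertain. The deposited table holds whole-number counts per gene, not normalized, and 0 columns were left unmapped.

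Groups were taken from the labels. Counts were fitted in R 4.3.3 with edgeR 4.0.16: filterByExpr with a minimum count of 10, TMM scaling, and quasi-likelihood tests with group coefficients over 9 libraries. The 2 contrasts with sh-Control share its 3 libraries. Tests were two-sided with Benjamini-Hochberg adjustment over 12712 genes. Libraries held 16385238 to 20510032 counts, and the biological coefficient of variation was 0.0768. CPM and ratios were computed from the counts, ratios with a pseudocount of 0.5, and levels per kilobase with GENCODE v29 exon lengths. The scripts were tested on simulated data. The members, lists and comparisons were chosen with earlier results of these data known. Genes given library by library were ALDOC, PFKFB4, the abundant enzymes, and members called with a log2 fold change of at least 0.585 in size in any contrast. Values of the other members, and library values of LDHB, HK2, PFKL, HIF1A and MYC, were added after they were seen. From each related list, the 2 genes with the smallest adjusted p against sh-Control for each hairpin were named, and every called gene among the HIF factors. Alternatives were DESeq2 1.42.0 (size factors and Wald test), upper quartile factors, no filter, at least 10 counts in every library, limma 3.58.1 voom, only the 6 libraries compared, a replicate block, each library left out, an adjusted p under 0.01, and a ratio pseudocount of 5.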

Additional observations from a re-analysis of the deposited data

Results flagged for a closer look

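For 3 members the fitted values of the hairpins lay on opposite sides of sh-Control and the difference between them passed the edgeR test. PDK3 was lower with shDDX41 #1 and higher with shDDX41 #2, a difference of -0.80 log2 units with shDDX41 #1 minus shDDX41 #2 (adjusted p = 4.03e-05). ANKRD37 was higher with shDDX41 #1 and lower with shDDX41 #2, a difference of 1.41 (adjusted p = 0.00414), at 5 to 30 counts per library. LDHB differed by 0.33 (adjusted p = 0.00699), where the value with shDDX41 #1 (0.03) overlapped sh-Control and only the fall with shDDX41 #2 was called. Of the 6 values against sh-Control, those called were PDK3 with shDDX41 #1 and LDHB with shDDX41 #2.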

How the results depend on the processing

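Over all alternatives and left-out libraries, the number of members called ranged from 20 to 25 with shDDX41 #1, from 12 to 20 with shDDX41 #2 and from 15 to 18 between the hairpins, each within 1.5 times the reported count. Under upper quartile factors the share of all called genes that were higher moved from 49.5% to 61.1% with shDDX41 #1, from 46.3% to 55.8% with shDDX41 #2 and from 50.3% to 56.9% between the hairpins, and of the members 21 of 22, 15 of 16 and 10 of 18 calls were then lower. The fit with a replicate block (libraries A, B and D as blocks) called 24, 17 and 18 members, as the fit without it did. The residuals of libraries with the same letter correlated at -0.057 to 0.243 over 9 pairs, and those with different letters at -0.184 to 0.066 over 18. Between sh-Control and shDDX41 #1, same-letter pairs (0.0725, 0.158 and 0.243) all lay above different-letter pairs (-0.184 to 0.0664). Pairs with shDDX41 #2 showed no such order. The reported fit took the letters as names only, and whether they mark a shared batch was not tested.

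The sign of the GAPDH difference between the hairpins turned under upper quartile factors (0.035), with a range of -0.029 to 0.0085 when libraries were left out. ALDOA between the hairpins turned under upper quartile factors (0.015). The sign also turned when a library was left out for PFKP over PFKL with shDDX41 #1 (-0.12 to 0.033) and ENO2 over ENO1 with shDDX41 #2 (-0.69 to 0.026). It did so too for BNIP3 over BNIP3L between the hairpins (-0.0046 to 0.073). None of these 5 differences passed its test in the reported analysis. The ratios could not have passed, as their exact permutation test cannot go below p = 0.1. The causes were not tested. Among values of single genes and ratios, 1217 were unchanged, 35 lost and 13 gained a call, 7 turned sign and 6, all of ALDOC or PFKFB4, moved. For tested genes, unchanged meant the same direction and the same side of the threshold. For ALDOC, PFKFB4 and the ratios, it meant the same direction and a shift under the standard error or the SD. GPI with shDDX41 #1 lost its call under upper quartile factors (adjusted p = 0.0586), ENO1 with shDDX41 #1 under upper quartile factors (0.186) and with only the 6 libraries compared (0.0698), PDK1 with shDDX41 #2 under upper quartile factors (0.0680), no filter (0.101) and the DESeq2 test (0.0640), and HK1 between the hairpins under upper quartile factors (0.0513). PDK3 with shDDX41 #2 gained a call as higher under upper quartile factors (0.0427), voom (0.0473) and the 6 libraries (0.0470), and so did ALDOA with shDDX41 #1 (0.0366) and NDRG1 with shDDX41 #2 (0.0416) without the filter and ANKRD37 with shDDX41 #2 under voom (0.0482), all as lower. Genes under about 35 counts, such as ENO2 and ANKRD37, are limited by counting error.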
